A study of Canis lupus familiaris with 2 samples.

Results

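The transcription factors that direct a retinal precursor toward rods, cones or bipolar cells were followed in adult canine neuroretina. The set held 9 genes, *CRX*, *OTX2*, *NEUROD1*, *NRL*, *NR2E3*, *MEF2C*, *THRB*, *RXRG* and *PRDM1*, taken by symbol with a rule that used no measured value, by a choice made with earlier results of these data known. All 9 were among the 34981 genes listed for the dog N350, and 7 were among the 19947 rows listed for the dog N354, where *NR2E3* and *NEUROD1* were not listed by name. Both dogs were male, 40 weeks old and labelled normal or wild type, and neither carried a treatment, so the design held 1 group of 2 animals and the comparisons were made between cell classes within a dog. The retina was sampled as punches of neuroretina, dissociated with trypsin and a neural tissue kit, and captured as single cells with the 10x 3′ kit, which counts each captured mRNA molecule once through a unique molecular identifier (UMI). No protein was measured.

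*OTX2*, a homeobox factor, and *CRX*, its close relative, act at the top of the photoreceptor programme, and both are also known from bipolar cells. *NRL*, a leucine zipper factor, and *NR2E3*, an orphan nuclear receptor that it activates, direct precursors to the rod fate and keep cone genes off in rods. *THRB* encodes the thyroid hormone receptor beta, whose retinal isoform is needed for the opsin of medium and long wavelengths, and *RXRG* encodes a retinoid X receptor that can pair with it in cones. *PRDM1* is a repressor known for holding precursors in the photoreceptor path against the bipolar one during development. *NEUROD1* is a basic helix-loop-helix factor that photoreceptors need for survival, and *MEF2C* is a MADS box factor known from muscle, neurons and microglia as well as from photoreceptors.

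Cell classes were set for each cell from the UMIs of marker genes of that class, without the 9 factors. N350 gave 8895 cells with at least 200 genes and N354 gave 4387, with medians of 1298 and 1204.5 UMIs, and 6 cell barcodes occurred in both dogs. Rods numbered 4970 in N350 and 2961 in N354, cones 272 and 185, bipolar cells 238 and 243, and Müller glia 680 and 515. Nearly all bipolar cells, 235 of 238 and 243 of 243, had more ON than OFF bipolar markers, so OFF bipolar cells were not described. In N350 the OFF markers *GRIK1*, *TACR3* and *NETO1* had 432, 7 and 120 UMIs. The ON markers ran from 182 for *GPR179* and 369 for *GRM6* to 5308 for *PCP2*. Whether the limit on the marker total of the class favoured ON cells was not tested. The bipolar cells below stand for ON bipolar cells. Horizontal cells (81 and 5), amacrine cells (60 and 8), ganglion cells (18 and 0), microglia (12 and 3) and vascular cells (32 and 1) could be described in N350 only, and astrocytes in both (22 and 21). Markers of a gate lead its class by construction; the 10 leading genes also held *GNGT2*, the transducin subunit of cones, and *LY96* in the cones of both dogs and *CLUL1* in the rods of both. Levels below are UMIs of a gene per 10000 UMIs of all genes in the class, with the exact Poisson 95% interval in brackets, which covers counting error only. They were compared for 1 gene across classes, never between genes.

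*CRX* was highest in rods, lower in cones, lower again in bipolar cells and lowest of these in Müller glia, in both dogs. In N350 the levels were 36.7 (36.2 to 37.1) in rods, 23.4 (22.6 to 24.2) in cones, 10.1 (9.31 to 10.9) in bipolar cells and 0.998 (0.915 to 1.09) in Müller glia. In N354 they were 21.5 (21.0 to 22.0), 12.3 (11.4 to 13.1), 5.65 (5.07 to 6.29) and 1.22 (1.10 to 1.34) in the same order. None of these intervals overlapped within a dog. A *CRX* UMI was found in 94.1% of the rods of N350 and 85.0% of those of N354. Müller glia held one in 35.7% and 23.3% of cells at median depths of 8302.5 and 6050 UMIs, against 1088 and 1019 UMIs in rods. Among cells with at least 1000 UMIs, each thinned to 1000, the shares were 95.5% of rods and 10.2% of Müller glia in N350, and 86.6% and 8.35% in N354. This left out 2085 of 4970 rods and 44 of 680 Müller glia in N350, and 1429 of 2961 and 51 of 515 in N354, so the thinned share of rods is that of the deeper cells.

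*OTX2* had the reverse order among these neurons, with its highest level in bipolar cells. The level was 2.70 (2.30 to 3.14) in bipolar cells, 1.68 (1.48 to 1.91) in cones and 1.17 (1.08 to 1.26) in rods of N350. In N354 it was 2.02 (1.67 to 2.41) in bipolar cells, 1.0 (0.774 to 1.28) in cones and 0.953 (0.854 to 1.06) in rods. Cones and rods had intervals that overlapped in N354 and did not in N350. In Müller glia only 21 UMIs in N350 and 25 in N354 were counted, levels of 0.0389 and 0.0755. Bipolar cells thus stood 2.31-fold (1.94 to 2.74) above rods for *OTX2* in N350 and 2.12-fold (1.71 to 2.61) in N354, while their *CRX* was 3.63-fold and 3.80-fold below that of rods.

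*NEUROD1* could be followed in N350 only. Its level was 8.87 (8.64 to 9.11) in rods and 7.95 (7.50 to 8.42) in cones, a ratio of cones to rods of 0.897 (0.841 to 0.955). It was 1.83 (1.51 to 2.20) in bipolar cells, 4.84-fold below rods. Horizontal cells had 0.640 (0.498 to 0.810), with a UMI in 44.4% of 81 cells, and amacrine cells had 0.727 (0.483 to 1.05). Müller glia had 0.242 (0.203 to 0.288). With 1 dog, these differences had no replicate.

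**Figure D1:**
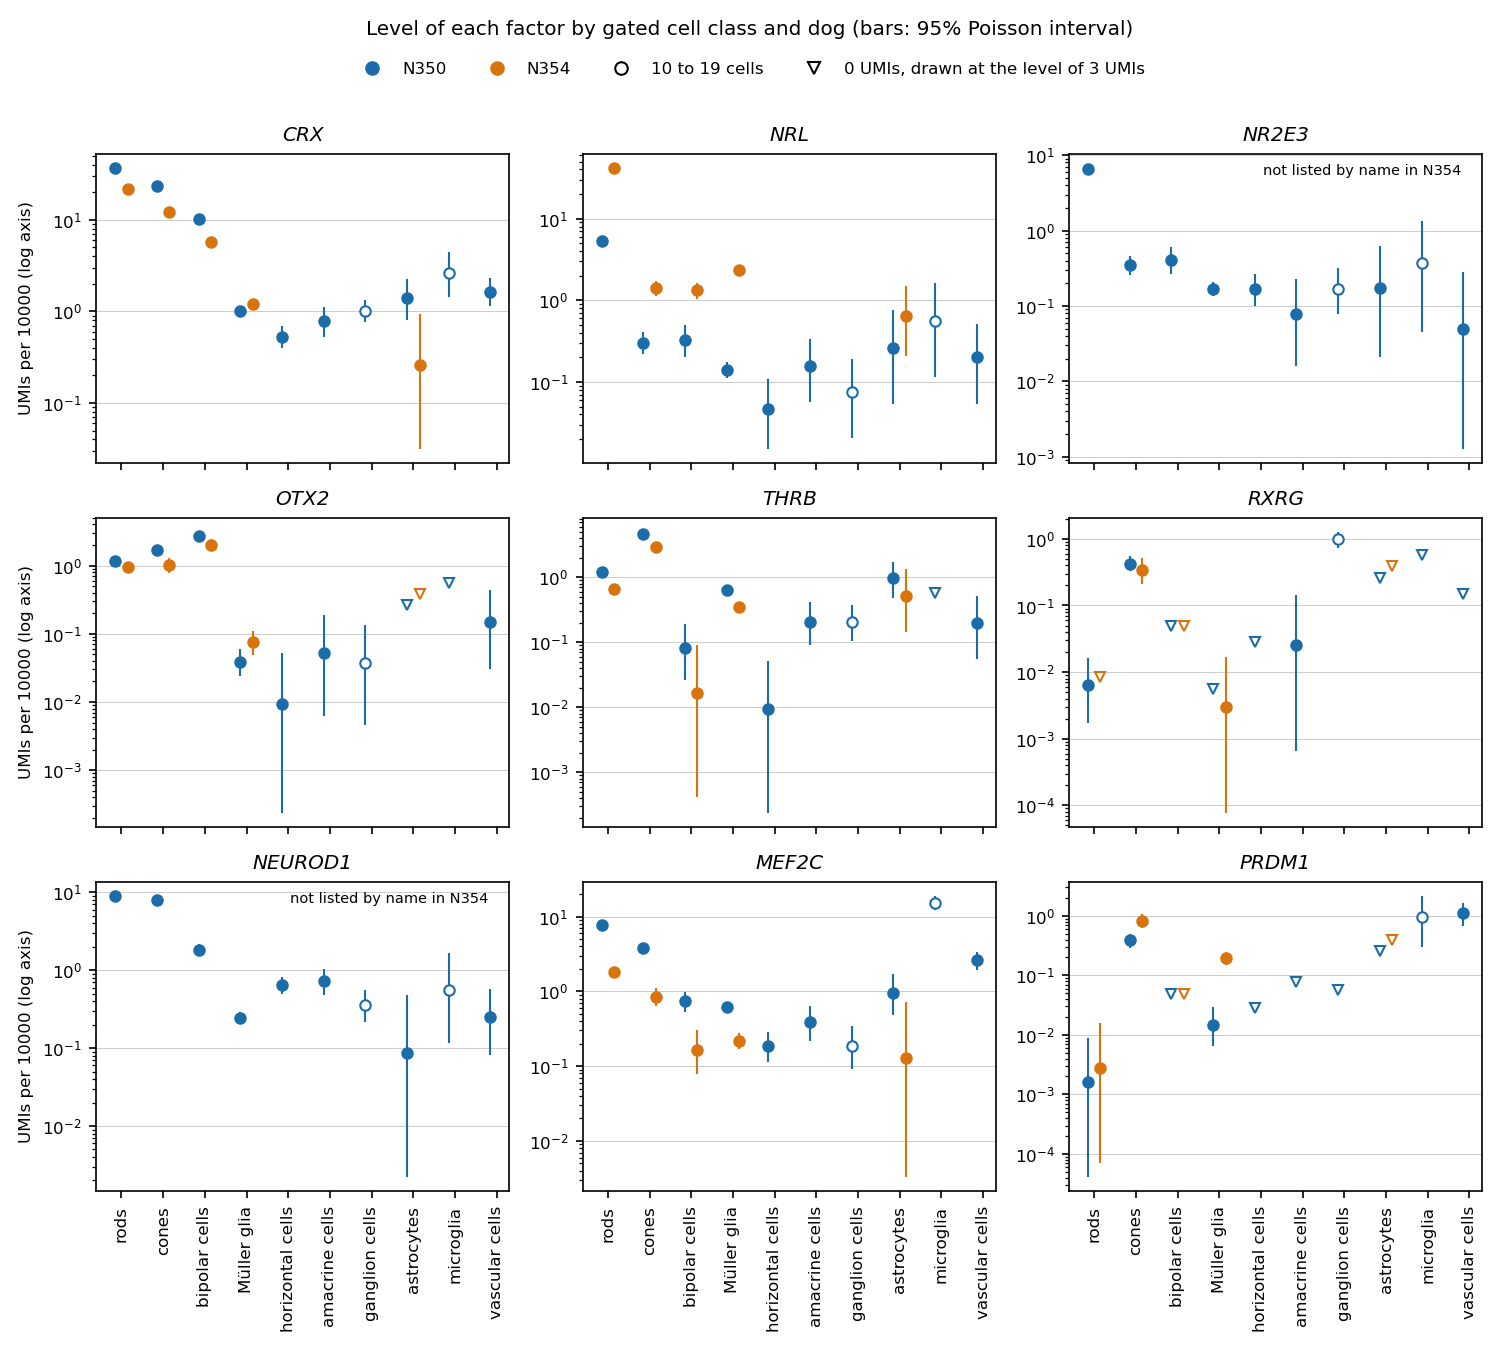
Each panel plots the level of 1 factor in UMIs per 10000 UMIs (log axis, with its own range) in 10 gated cell classes, with blue for N350, orange for N354 and bars for the 95% Poisson interval; open circles are classes of 10 to 19 cells, triangles stand at the level of 3 UMIs where none was counted, and classes under 10 cells are not drawn. *CRX* falls from rods to cones to bipolar cells in both dogs, *NRL* and *NR2E3* stand highest in rods, and *THRB*, *RXRG* and *PRDM1* stand higher in cones than in rods.

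The factors of the rod fate were far higher in rods than in the other classes described. *NRL* was at 5.38 (5.20 to 5.57) in the rods of N350 and 0.304 (0.222 to 0.407) in its cones, from 3347 and 45 UMIs. In N354 it was at 41.5 (40.9 to 42.2) in rods and 1.42 (1.14 to 1.74) in cones, from 14816 and 92 UMIs. Cones were thus 17.7-fold below rods in N350 and 29.3-fold below in N354, and bipolar cells were 16.4-fold and 31.4-fold below. *NR2E3*, listed in N350 alone, was at 6.64 (6.44 to 6.84) in rods, 0.345 (0.257 to 0.453) in cones and 0.409 (0.265 to 0.604) in bipolar cells, so cones were 19.2-fold below rods. In N350 the 36 cones with under 5% of UMIs on mitochondrial genes were 5.59-fold below rods of that share for *NRL* and 8.60-fold for *NR2E3*, from 14 and 12 UMIs, and the other 236 cones were 22.4-fold and 20.6-fold below. A set of 5 rod genes had 30.4 UMIs per 10000 in the first of these groups and 11.6 in the second, and their part in the difference was not tested.

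*MEF2C* was shared by both kinds of photoreceptor, with rods above cones. N350 had 7.63 (7.42 to 7.85) in rods and 3.79 (3.49 to 4.12) in cones, and N354 had 1.80 (1.67 to 1.95) and 0.849 (0.639 to 1.10). Although the dogs differed in level, cones had 0.497 (0.454 to 0.543) times the level of rods in the first dog and 0.471 (0.351 to 0.621) times in the other. Bipolar cells were 10.4-fold and 10.9-fold below rods. The highest level in N350 was in its 12 microglia, at 15.4 (12.2 to 19.1) from 82 UMIs in 11 of the 12 cells, and vascular cells had 2.59 (1.94 to 3.40). N354 had 3 cells in the class of microglia and 1 in that of vascular cells, so neither level could be set beside a second dog.

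*THRB* was higher in cones than in rods and was counted in both. UMIs were counted per gene, so its isoforms were not told apart. Cones had 4.67 (4.33 to 5.03) in N350 and 2.90 (2.50 to 3.35) in N354, and rods had 1.19 (1.10 to 1.27) and 0.653 (0.572 to 0.742). The ratio of cones to rods was 3.94 (3.55 to 4.38) and 4.44 (3.65 to 5.41). It was smaller among cells with under 5% of UMIs on mitochondrial genes, at 1.56 (1.02 to 2.29) from 28 UMIs in 36 cones of N350, and it was 4.51 (3.96 to 5.14) in the other 236. All 185 cones of N354 were at 5% or more, with a ratio of 5.33 (4.23 to 6.72) to rods of that share. Müller glia had 0.631 (0.566 to 0.702) and 0.351 (0.290 to 0.420), and astrocytes had 0.957 (0.478 to 1.71) and 0.518 (0.141 to 1.33) from 11 and 4 UMIs. Bipolar cells held only 5 UMIs in N350 and 1 in N354, with ratios to rods of 0.0690 (0.0223 to 0.162) and 0.0253 (0.000638 to 0.142). The order of the 4 large classes was therefore cones, rods, Müller glia and bipolar cells in both dogs.

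*RXRG* was sparse and almost limited to cones among the large classes. Cones held 63 UMIs in N350, a level of 0.426 (0.327 to 0.545), and 22 in N354, a level of 0.339 (0.213 to 0.514). The far more numerous rods held 4 UMIs in N350 and 0 in N354, bipolar cells held 0 in both dogs, and Müller glia held 0 and 1. Cones were 66.2-fold (24.6 to 251) above rods in N350 and at least 40.4-fold above in N354, with 3 UMIs over the class as the floor. The 18 ganglion cells of N350 held 52 UMIs, a level of 0.979 (0.731 to 1.28), in 5 of the cells.

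*PRDM1* was present in cones and close to missing from rods and bipolar cells. Cones held 57 UMIs in N350 and 54 in N354, levels of 0.385 (0.292 to 0.499) and 0.833 (0.626 to 1.09). Rods held 1 UMI in each dog among 4970 and 2961 cells, which put cones 240-fold (41.3 to 9633) above rods in N350 and 297-fold (51.1 to 11958) above in N354. Bipolar cells held 0 UMIs in both dogs, so cones were at least 7.85-fold and at least 16.8-fold above them. Müller glia differed between the dogs, with 8 UMIs in 8 of 680 cells of N350 and 65 UMIs in 43 of 515 cells of N354, levels of 0.0148 (0.00639 to 0.0292) and 0.196 (0.152 to 0.250). In N350 the vascular cells had 1.10 (0.688 to 1.66) from 22 UMIs.

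Cones were then divided by *OPN1SW*, the opsin of short wavelengths, into those with at least 50 and those under 20 UMIs of it per 10000. The division left 1 cone of N350 and none of N354 between these limits, and that cone, with 33 UMIs of *OPN1SW* among 9911, held 7 of *THRB* and 6 of *OPN1LW*. N350 had 33 cones with high and 238 with low *OPN1SW*, and N354 had 12 and 173. *OPN1LW*, the opsin of long wavelengths, had 0 UMIs in the cones with high *OPN1SW* of both dogs and 323 and 367 UMIs in the others. *OPN1MW* was listed in neither dog.

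*THRB* followed the opsins. Cones with high *OPN1SW* held 0 UMIs of *THRB* in both dogs, among 169195 UMIs in N350 and 56907 in N354. Cones with low *OPN1SW* held 684 UMIs in N350 and 188 in N354, levels of 5.26 (4.88 to 5.67) and 3.18 (2.74 to 3.67). The level was thus at least 29.7-fold lower in the first group in N350 and at least 6.03-fold lower in N354. Counted with the high group, the cone between the limits would bring *THRB* there to 7 UMIs and the difference in N350 to 13.5-fold, a ratio of 0.0743 (0.0297 to 0.154). A *THRB* UMI occurred in 0 of 33 and 0 of 12 cones with high *OPN1SW*, for which the exact binomial 95% interval reached 10.6% and 26.5%. In cones with low *OPN1SW* it occurred in 74.4% and 46.2%. Among cones with at least 1000 UMIs, thinned to 1000, the shares were 0% against 37.5% in N350 and 0% against 26.9% in N354. The minimum left out 30 of 238 and 66 of 173 cones with low *OPN1SW* and none of the others. The group of 12 cells in N354 was under the minimum of 20 for a sum to be tested, so no test was made.

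The other factors were counted in both groups of cones, except *NRL* in N354. *RXRG* had ratios of high to low *OPN1SW* of 0.686 (0.214 to 1.70) in N350 and 2.31 (0.568 to 7.01) in N354, and *PRDM1* had 1.25 (0.513 to 2.67) and 1.30 (0.454 to 3.04). *CRX* had 1.02 (0.915 to 1.13) and 1.25 (0.983 to 1.56), and *OTX2* had 1.09 (0.724 to 1.60) and 1.46 (0.601 to 3.07). *MEF2C* had 1.26 (0.976 to 1.60) and 0.599 (0.120 to 1.85). All of these intervals held 1, and they leave room for sizeable differences in *RXRG* and *PRDM1*. Counting the cone between the limits with the high group would bring *MEF2C* in N350 to 1.28 (1.001 to 1.61). *NEUROD1* in N350 was 1.31-fold (1.10 to 1.54) higher in cones with high *OPN1SW*, from 170 and 1000 UMIs. Of *NRL*, cones with high *OPN1SW* held 7 UMIs in N350 and 0 in N354, and the others held 37 and 92. *NR2E3* in N350 had a ratio of 0.873 (0.270 to 2.20), from 5 and 44 UMIs.

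**Figure D2:**
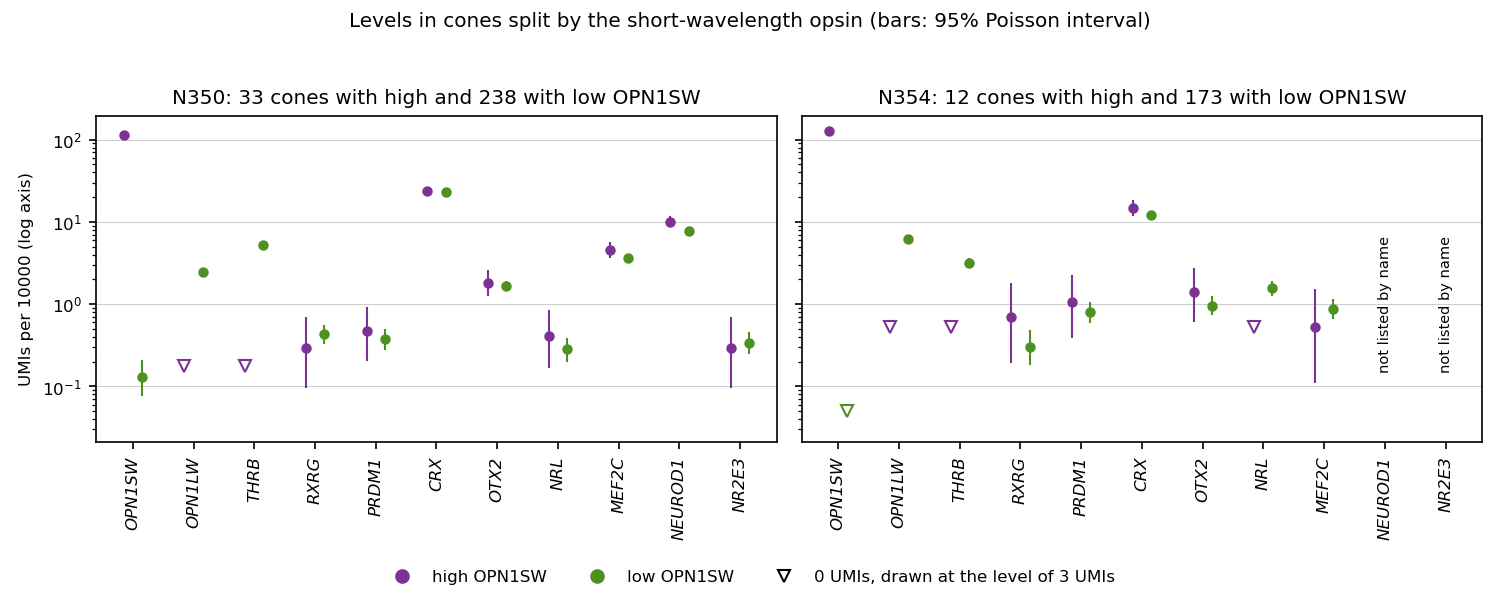
Levels in UMIs per 10000 UMIs (log axis) of 2 opsins and the 9 factors in cones with high (purple) and low (green) *OPN1SW*, with 1 panel for each dog, bars for the 95% Poisson interval, and triangles at the level of 3 UMIs where none was counted. *THRB* and *OPN1LW* are at 0 UMIs in the cones with high *OPN1SW* of both dogs, while *CRX*, *OTX2*, *RXRG* and *PRDM1* have overlapping bars in the 2 groups.

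In droplet data, free RNA of an abundant cell type can enter the droplets of other cells. Rods were the most numerous class in both dogs. They held 25.9% and 36.8% of UMIs in N350 and N354, and Müller glia held 22.5% and 34.2%. Free RNA itself was not measured. The UMIs of each factor in a class were therefore set against the UMIs it would have if 5 rod genes (*GNGT1*, *GNAT1*, *CNGA1*, *PDE6A* and *PDE6B*) brought it along at the proportion found in rods of the same dog. These 5 genes had 197 and 403 UMIs per 10000 in rods, 13.4 and 16.6 in cones, 17.2 and 15.8 in bipolar cells, and 6.70 and 25.6 in Müller glia. They are markers of the rod gate, so their level outside rods was bounded by the gates themselves.

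*NRL* in cones, bipolar cells and Müller glia did not exceed the proportion of rods. The observed UMIs were 0.830 (0.606 to 1.11) times that amount in the cones of N350 and 0.833 (0.671 to 1.02) in those of N354, 0.695 (0.424 to 1.07) and 0.812 (0.644 to 1.01) in bipolar cells, and 0.768 (0.605 to 0.961) and 0.901 (0.839 to 0.966) in Müller glia. *NR2E3* in N350 ran at 0.763 (0.568 to 1.0) in cones, 0.704 (0.456 to 1.04) in bipolar cells and 0.745 (0.600 to 0.915) in Müller glia. Whether these UMIs came from free rod RNA or from the cells themselves was not tested. The proportion varies with the gene it is taken from, over 0.355 to 1.05 for *NRL* in the cones of N350 and 0.232 to 1.16 in those of N354.

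The other factors split by class against the same measure. In cones *CRX* was 9.36 and 13.9 times the rod proportion, *OTX2* 21.2 and 25.6 times, *MEF2C* 7.30 and 11.5 times and *THRB* 57.9 and 108 times, and *NEUROD1* was 13.2 times in N350. In bipolar cells *CRX* was 3.15 and 6.70 times and *OTX2* 26.4 and 54.0 times, and *NEUROD1* was 2.36 times in N350. *THRB* in bipolar cells was at 0.789 (0.256 to 1.84) and 0.645 (0.0163 to 3.60), and *MEF2C* there was at 1.10 (0.804 to 1.47) in N350 and 2.34 (1.12 to 4.30) in N354. In Müller glia *CRX* was at 0.799 (0.733 to 0.870) and 0.892 (0.807 to 0.983) and *OTX2* at 0.978 (0.605 to 1.5) and 1.25 (0.808 to 1.84). Over single rod genes, *CRX* there ran from 0.725 to 0.893 in N350 and from 0.843 to 1.13 in N354. *OTX2* ran from 0.887 to 1.09 and from 1.18 to 1.58, and the source of these UMIs was not tested. *THRB* in Müller glia stood at 15.6 (14.0 to 17.4) and 8.45 (6.98 to 10.1) times the rod proportion, and *MEF2C* at 2.41 (2.16 to 2.68) and 1.90 (1.49 to 2.39). *NEUROD1* exceeded it in horizontal cells, at 5.17 (4.02 to 6.55), and in amacrine cells, at 2.99 (1.98 to 4.32). *NR2E3* in horizontal cells was also above it, at 1.80 (1.07 to 2.85), from 18 UMIs in 16 of 81 cells. *NRL* had at most 6 UMIs in any of the smaller classes, with wide intervals that held 1, such as 2.56 (0.830 to 5.97) in the astrocytes of N354.

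**Figure D3:**
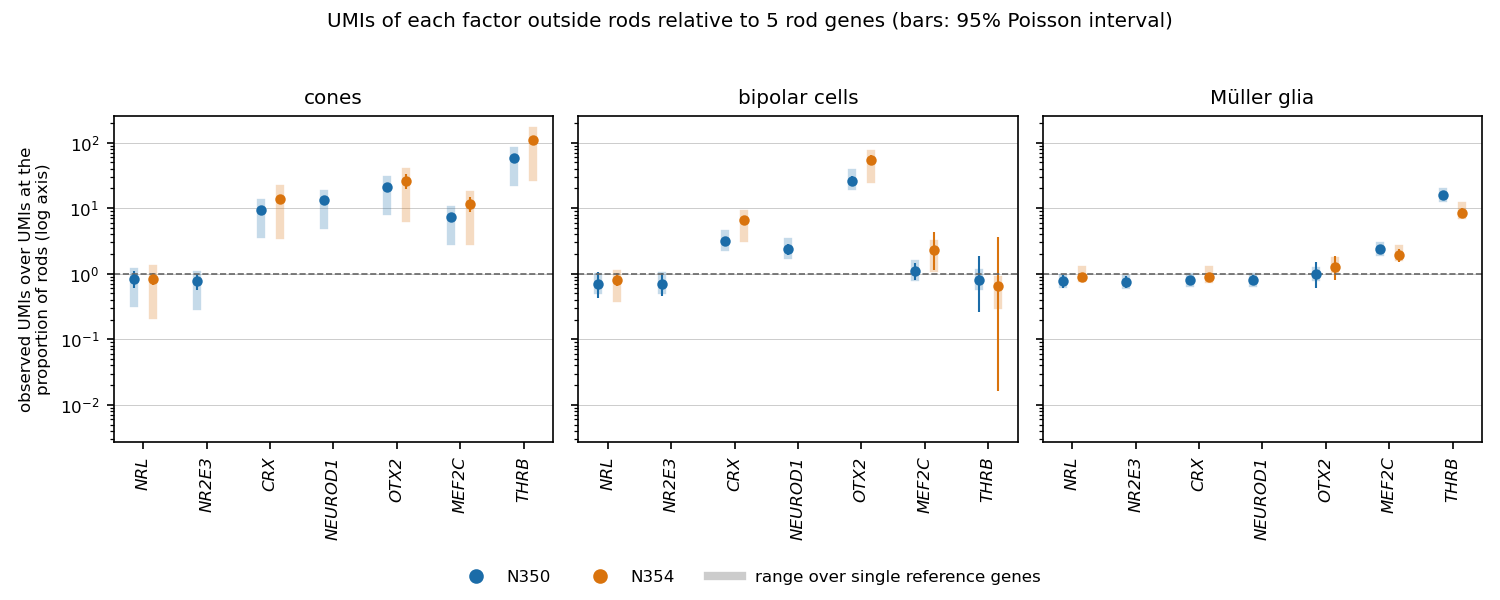
Observed UMIs of 7 factors divided by the UMIs expected at the proportion of rods (log axis; the dashed line is 1) in cones, bipolar cells and Müller glia, with blue for N350, orange for N354, bars for the 95% Poisson interval and pale bands for the range over single reference genes. *NRL* and *NR2E3* lie at or just under 1 in all 3 classes, *CRX* and *OTX2* lie above 1 in cones and bipolar cells and at about 1 in Müller glia, and *THRB* lies above 1 in cones and Müller glia.

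Differences between classes were tested on UMIs summed per dog and class. The fit held 10 sums of 5 classes (rods, cones, bipolar cells, Müller glia and astrocytes), the dog as a block and 11320 genes, with edgeR's quasi-likelihood test and Benjamini-Hochberg adjustment at 0.05. The 7 factors listed in both dogs passed the minimum of 10 UMIs over the sums. *NR2E3* and *NEUROD1* were not tested. Log2 fold changes come from this fit with its own scaling of the sums (TMM), so they can differ from ratios of the levels above. Each SE was derived from the test, as the absolute log2 fold change over the square root of the F statistic.

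Between cones and rods, 3 of the 7 factors were higher in cones, where 11.0% of all genes tested were higher, and 3 were lower, where 11.8% of all genes were lower. *PRDM1* was higher in cones by a log2 fold change of 7.88 ± 0.66 (SE; adjusted p = 5.23e-11), *RXRG* by 6.46 ± 0.66 (adjusted p = 4.18e-09) and *THRB* by 2.10 ± 0.20 (adjusted p = 7.20e-10). *NRL* was lower by a log2 fold change of -4.50 ± 0.32 (adjusted p = 4.19e-13) and *MEF2C* by -0.99 ± 0.21 (adjusted p = 0.000541). *CRX* was lower by -0.68 ± 0.25 with an adjusted p of 0.0428, a call that was lost in 5 of 7 alternatives, with adjusted p from 0.0194 to 0.938. *OTX2* did not pass, with 0.39 ± 0.24 (adjusted p = 0.265).

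Between bipolar cells and rods, 1 factor was higher in bipolar cells, where 13.3% of all genes were higher, and 4 were lower, where 17.2% were lower. The one that rose was *OTX2*, by 1.07 ± 0.23 on the log2 scale (adjusted p = 0.000524). *NRL* was lower by -4.74 ± 0.34, *THRB* by -4.29 ± 0.39, *MEF2C* by -3.45 ± 0.26 and *CRX* by -1.97 ± 0.26, with adjusted p of 2.90e-13, 9.25e-11, 1.29e-12 and 1.58e-07. *PRDM1* and *RXRG*, with at most 4 UMIs in either class of a dog, did not pass (adjusted p of 0.686 and 0.584).

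Against Müller glia, 5 factors were higher in rods, where 32.7% of all genes were higher, and 1 was lower, where 29.3% were lower. *CRX* was higher in rods by a log2 fold change of 4.27 ± 0.28, *NRL* by 4.18 ± 0.30, *OTX2* by 3.94 ± 0.29 and *MEF2C* by 3.02 ± 0.22, with adjusted p of 1.65e-14, 7.76e-14, 3.83e-13 and 1.77e-13. *THRB* was higher by 0.56 ± 0.20 (adjusted p = 0.0170), and this call was lost in 8 of 9 alternatives (adjusted p from 0.0189 to 0.630). *PRDM1* was lower in rods, by -5.16 ± 0.75 (adjusted p = 5.80e-07), and 65 of its 73 UMIs in Müller glia were from N354. In bipolar cells, 2 factors were higher than in Müller glia, where 18.9% of all genes were higher, and 2 were lower, where 21.5% were lower. *OTX2* was higher by 5.01 ± 0.30 (adjusted p = 7.66e-15) and *CRX* by 2.30 ± 0.27 (adjusted p = 1.11e-08). *THRB* was lower by -3.73 ± 0.41 (adjusted p = 4.16e-09) and *PRDM1* by -7.50 ± 1.88 (adjusted p = 0.00172). *PRDM1* had 0 UMIs in the bipolar cells of both dogs, so the counts do not set the size of its fold change. With 3 UMIs as the floor, its ratio of bipolar cells to Müller glia was at most 0.252 in N354. In N350, with 8 UMIs in Müller glia, it was at most 3.31, which does not show a difference. *NRL* went opposite ways in the dogs there, with a scaled log2 ratio of 0.79 in N350 and -1.26 in N354, beside 6.70 and 25.6 UMIs per 10000 of the 5 rod genes in the Müller glia of those dogs.

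The sums of 1 dog come from 1 animal, which is why the dog was a block. Without it the genes called fell from 2577 to 110 for cones over rods, from 3452 to 508 for bipolar cells over rods, from 7013 to 1442 for rods over Müller glia and from 4573 to 854 for bipolar cells over Müller glia. Of the 21 calls of factors, 16 were then lost and 5 kept, the kept ones being *CRX* and *OTX2* in rods over Müller glia, *OTX2* and *THRB* in bipolar cells over Müller glia, and *THRB* in bipolar cells over rods. Apart from the block, 19 of the 21 were lost in none of the alternatives.

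**Figure D4:**
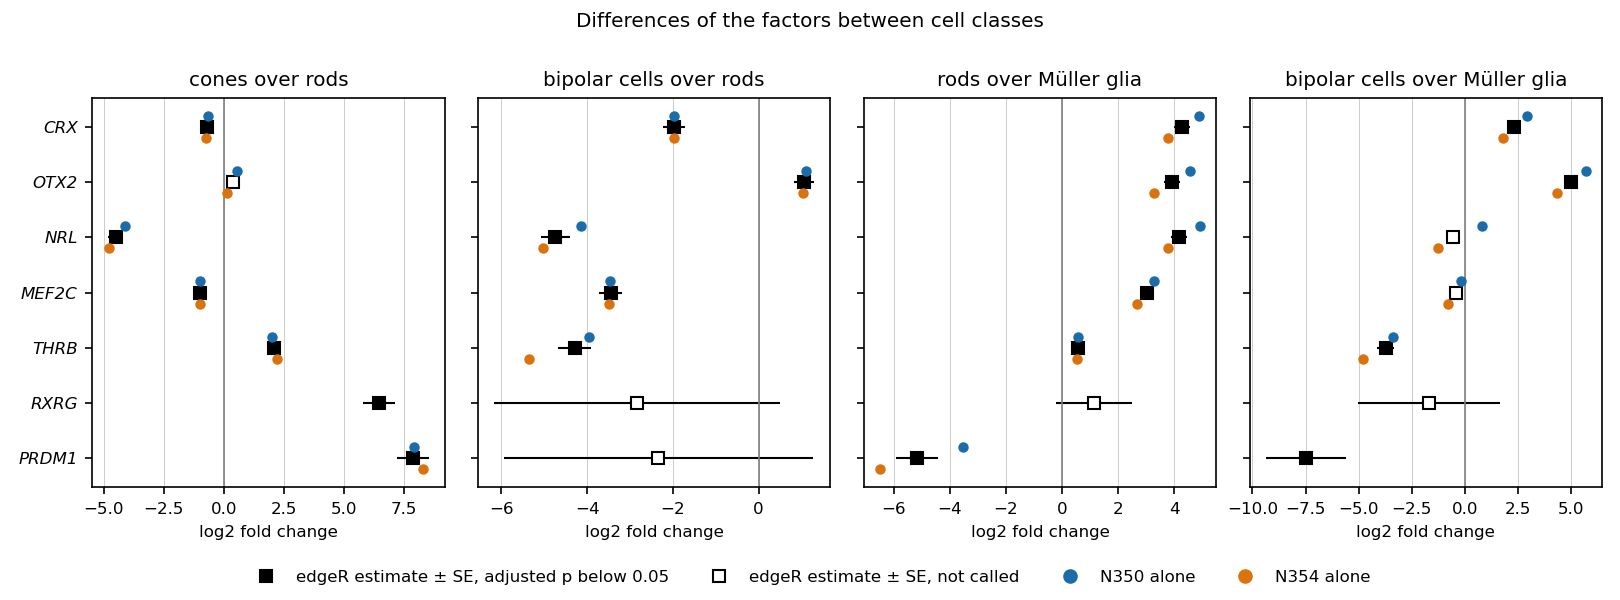
Log2 fold changes of the 7 factors tested in 4 comparisons of cell classes, with 1 panel for each; squares with bars are the edgeR estimate ± SE, filled where adjusted p is below 0.05, and circles are the TMM-scaled log2 ratio in N350 (blue) and N354 (orange) alone, drawn where both classes had UMIs in both dogs. For cones over rods the circles of the dogs lie closest for *MEF2C*, at -1.0 and -1.01, and furthest apart for *NRL*, at -4.14 and -4.79. Those of *NRL* lie on opposite sides of 0 for bipolar cells over Müller glia.

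Other genes of these programmes were taken as lists, described by counts. Of 14 further photoreceptor regulators, 2 were higher and 5 lower in cones than in rods, beside 11.0% higher and 11.8% lower over all genes, and the median log2 fold change was -0.23 beside -0.18. *SAMD11*, a corepressor partner in the rod programme, had 4.44 and 2.90 UMIs per 10000 in the rods of N350 and N354 and 0.223 and 0.0771 in their cones, and was lower in cones by -4.51 ± 0.31 on the log2 scale (adjusted p = 2.52e-13). *ESRRB*, an orphan receptor active in rods, was lower in cones by -3.75 ± 0.42 (adjusted p = 1.97e-08). *NR1D1*, a receptor of the circadian clock, was higher in cones by 2.90 ± 0.23 (adjusted p = 1.03e-11). Against Müller glia, 9 of the 14 were higher in rods and 2 lower, beside 32.7% and 29.3% of all genes, with a median of 1.78 beside 0.19.

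Of 10 genes of the thyroid hormone and retinoid axis, 9 were tested, and 1 was higher in cones than in rods, 2 were lower and 6 were not called, beside 11.0% higher and 11.8% lower over all genes. *SALL3*, a zinc finger factor, was the one higher in cones, by 6.80 ± 0.65 on the log2 scale (adjusted p = 9.40e-10), from 117 UMIs in the cones of N350 and 9 in those of N354. *THRA*, which encodes the other thyroid hormone receptor, was not called between cones and rods but was higher in bipolar cells than in rods, by 2.15 ± 0.27 (adjusted p = 9.38e-08), the reverse of *THRB*. *DIO2*, the deiodinase that makes active thyroid hormone, was counted in Müller glia with 197 and 144 UMIs and in rods with 5 and 1, and was lower in rods by -6.23 ± 0.46 (adjusted p = 5.95e-13).

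Of 10 regulators of bipolar fate, 7 were tested, and 5 of these were higher in bipolar cells than in rods and none lower, beside 13.3% and 17.2% of all genes. *ISL1*, a LIM homeobox factor of ON bipolar cells, had 8.16 and 9.12 UMIs per 10000 in bipolar cells and 0.0306 and 0.00280 in rods. In cones the only one called was *LHX4*, higher than in rods by 6.29 ± 0.65 (adjusted p = 4.14e-09), from 76 and 8 UMIs.

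Of 14 regulators of progenitors and other neurons, 8 were tested, and 6 of them were lower in rods than in Müller glia and none higher, beside 29.3% lower and 32.7% higher over all genes. *RAX*, the retinal homeobox factor, had 1.29 and 2.51 UMIs per 10000 in Müller glia, 1.06 and 2.50 in cones, and 0.0434 and 0.0729 in rods. *SIX6* joined it as higher in cones than in rods, by 5.09 ± 0.32 on the log2 scale (adjusted p = 3.50e-14). Of 26 photoreceptor genes that are known or likely targets of these factors, 8 were higher and 11 lower in cones than in rods, 20 were lower and none higher in bipolar cells than in rods, and 20 were higher and 3 lower in rods than in Müller glia. Over all genes the shares were 11.0% and 11.8%, 17.2% lower and 13.3% higher, and 32.7% and 29.3%. Between bipolar cells and Müller glia, 2 of the 26 were higher, 3 lower and 21 not called, beside 18.9% higher and 21.5% lower. *CNGA3*, a channel subunit of cones, was higher in cones by 9.42 ± 0.50 and *SLC24A1*, the exchanger of rods, was lower by -4.36 ± 0.36 (adjusted p = 2.41e-15 and 2.15e-11).

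The genes whose pattern over the 10 class sums was most like that of a factor were found by Pearson correlation of log2 levels, centred within each dog, among 7577 genes. *RXRG* was under the minimum of 50 UMIs in N354, where *NR2E3* and *NEUROD1* were not listed by name, so these factors were not matched. The points share 2 libraries and 5 classes, so the correlations are descriptive. *CRX* was matched by *UNC119* (r = 0.995), *GADD45A* (0.992) and *GNB5* (0.988), and *NRL* by *SLC24A1* (0.994), *REEP6* (0.991) and *TFPI2* (0.987). *OTX2* was matched by *NLK* (0.992), *LUC7L3* (0.991) and *PIP5K1C* (0.991), and *MEF2C* by *DDIT4L* (0.990), *BAZ2B* (0.988) and *PAIP2B* (0.988). *THRB* was matched by *TSC22D1* (0.978), *TMEM53* (0.960) and *NEDD4L* (0.958), and *PRDM1* by *INSYN1* (0.986), *JAM3* (0.970) and *ATP10D* (0.947).

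The dogs differed in the level of single factors within rods. Here levels were taken over the UMIs of names that both dogs list, so the folds differ from ratios of the levels above. *NRL* was 7.17-fold higher in the rods of N354 than in those of N350, and *MEF2C* was 4.55-fold lower, *THRB* 1.95-fold lower, *CRX* 1.83-fold lower and *OTX2* 1.32-fold lower. Among 8012 genes counted in rods, 8.67% differed at least as far as *NRL* in either direction and 13.6% as far as *MEF2C*. Of the differences, 90% lay between -3.37 and 1.30 on the log2 scale, so they leaned toward lower levels in N354. Ranked with their sign, from lower to higher in N354, *NRL* stood at percentile 98.5 and *MEF2C* at percentile 11.5. The dogs were counted on different gene lists, so animal and annotation cannot be told apart. Scaled log2 ratios between classes, taken within a dog, were close for *MEF2C* in cones over rods, at -1.0 and -1.01, and apart for *MEF2C* in rods over Müller glia, at 3.28 and 2.69, and for *NRL* in bipolar cells over rods, at -4.14 and -5.03.

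Rods with 5% or more of their UMIs on 13 mitochondrial genes, 2442 of 4970 in N350 and 1697 of 2961 in N354, were set beside the others, over non-mitochondrial UMIs. Their median depths were 1304.5 and 1311 UMIs, beside 1012 and 901 in the other rods. Whether this share measures RNA quality was not tested. *NRL* was alike, with ratios of 0.988 (0.923 to 1.06) and 1.0 (0.968 to 1.04). *MEF2C* was lower in rods with the larger mitochondrial share, with 0.773 (0.730 to 0.819) and 0.718 (0.613 to 0.842), and *CRX* was lower with 0.937 (0.913 to 0.961) and 0.820 (0.783 to 0.858). *THRB* had 0.908 (0.784 to 1.05) in N350 and 0.683 (0.524 to 0.893) in N354, and *OTX2* had 0.906 (0.781 to 1.05) and 0.831 (0.666 to 1.04). In N350 *NR2E3* had 0.864 (0.813 to 0.919) and *NEUROD1* had 0.874 (0.829 to 0.922). Cones had a median mitochondrial share of 7.54% in N350 and 11.9% in N354, bipolar cells 13.1% and 17.7%, and rods 4.92% and 6.16%, and the part of this in the differences between classes was not tested. The 36 cones of N350 with under 5%, of which 7 had high *OPN1SW*, differed from all 272 in several factors. *THRB* was at 2.0 beside 4.67, *RXRG* at 0.215 beside 0.426 from 3 UMIs, and *PRDM1* at 0.143 beside 0.385 from 2 UMIs. *NRL* was at 1.0 beside 0.304 and *NR2E3* at 0.858 beside 0.345, while *CRX* was at 26.0 beside 23.4, *OTX2* at 1.65 beside 1.68 and *MEF2C* at 3.93 beside 3.79.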

How the data were processed

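The neuroretina of 2 normal dogs was profiled with 10x 3′ v3.1 libraries. The authors ran Cell Ranger (6.0.2 per the file headers), with canFam6 as the genome named in the study, and deposited raw UMI counts of each gene in each called cell, 34981 genes in N350 and 19947 in N354. The 17 repeated names of N354 were summed. The members and lists were chosen with earlier results of these data known. No sequences are shown, since none of the files used here holds them.

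Cells with at least 200 genes were gated on the raw UMIs of marker lists, without the 9 factors. A gate asked for at least 3 UMIs over at least 2 markers and, per 10000 UMIs, a list total of at least 300 (rods), 200 (cones), 100 (bipolar cells, Müller glia), 50 (horizontal, ganglion cells), 30 (amacrine, microglia, vascular cells) or 20 (astrocytes). These limits were set on the markers after their distributions were seen. *TYROBP* and the names *OPN1MW* and *SEPT4* were missing from 1 or both dogs. Cells that passed several gates (15 and 19) were left out as probable doublets, and 2495 and 426 passed none. Scrublet (scanpy 1.11.5) called 0 and 4 cells by its own threshold, so removing the 4% with the highest scores was an alternative. No mitochondrial limit was used, because names starting with MT- marked 12 genes in N354 and none in N350.

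Levels have exact Poisson intervals, shares exact binomial intervals and ratios exact conditional ones (95%; Python 3.11.15, scipy 1.17.1), all for counting error only. Thinned shares are expectations at 1000 UMIs, with shallower cells left out. Class sums were tested with edgeR 4.0.16 (4 residual degrees of freedom). The 65 gate markers were not tested. DESeq2 1.42.0 was an alternative. The dog pairs the sums: over 11378 genes, departures from the class means within 1 dog correlated between 0.392 and 0.811. With the dog as a block, the p-values rest on how far the differences between classes departed between 2 animals, and on the spread of other genes. The quasi-likelihood fit draws the spread of each gene toward a trend over all genes tested. An overall difference in level between the animals is not part of the p-values. The planned ratio to 1 rod gene could be made in N350 only and is not reported here; the sum of 5 rod genes was added in its place. Named genes were the 9 factors and, in each list, up to 4 per direction with the largest called change. For each factor with at least 50 UMIs in each dog, the 3 genes most like it were named. *OPN1SW* and *OPN1LW* were added to divide the cones.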

Additional observations from a re-analysis of the deposited data

Results flagged for a closer look

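The comparisons used cells that passed 1 gate, and the factors were also counted in the cells that passed none, 2495 in N350 and 426 in N354. The values are UMIs per 10000 UMIs. They are listed because UMIs of the factors lay outside the comparisons; being above a count of 0 does not set them apart from free RNA. *CRX* had 4.43 in N350 and 2.22 in N354, *NRL* 0.562 and 3.35, *OTX2* 0.274 and 0.329, and *THRB* 0.464 and 0.196. *MEF2C* had 1.04 and 0.329 and *PRDM1* 0.0127 and 0.0392. In N350, *NR2E3* had 0.507, *NEUROD1* 1.22 and *RXRG* 0.0241, from 19 UMIs. The 5 rod genes had 21.5 and 31.7 UMIs per 10000 in these cells, beside 197 and 403 in rods.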

How the results depend on the processing

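The counts of genes called moved past 1.5 times in 6 cases. Without the replicate block, that is without the pairing of class sums by dog, they were 110 (cones over rods), 508 (bipolar cells over rods), 1442 (rods over Müller glia) and 854 (bipolar cells over Müller glia), which took 16 of the 21 calls of factors. DESeq2 called 1567 for cones over rods, and the limit of 5% on 13 mitochondrial genes, chosen after seeing the data, left 4036 for rods over Müller glia with fewer cells. The mitochondrial limits left no other comparison with enough cells in both dogs. DESeq2's size factors in edgeR shifted the median log2 fold change of all genes by 0.12, 0.17, -0.21 and -0.03 in those comparisons, and the share of calls that were higher went from 48.3% to 59.4%, 43.7% to 53.5%, 52.7% to 44.9% and 46.9% to 45.3%. The sign of 3 fold changes that were never called turned: *PRDM1* in bipolar cells over rods was 0.64 by DESeq2 and 2.05 with gate shares at 0.5 of those used (added after seeing the data), and *RXRG* in bipolar cells over Müller glia was 0.79 by DESeq2. *NRL* in bipolar cells over Müller glia was called, at -1.03 (adjusted p = 0.0116, edgeR), when the highest Scrublet scores were left out. With 1 dog left out, every call with UMIs in both classes of both dogs kept its sign. Of the levels in the highest class of at least 20 cells, 42 of 102 alternative values moved past the counting interval, most with another denominator: over names that both dogs list, *CRX* in rods was 47.5 and 25.9 in place of 36.7 and 21.5. Among classes of at least 20 cells, which leaves out the microglia and ganglion cells of N350, the class with the highest level stayed the same in all 102 of these values. In 10 further cases, under a mitochondrial limit, that class fell under 20 cells and another class was highest among those left. The limit on names starting with MT- removed no cell of N350, so its values under that limit could not change. Of the single fold changes, 27 lost their call, 16 of them without the block. *THRB* in cones over rods of N350 fell from 3.94 to 1.56 among cells under 5% mitochondrial, and counting the cone between the *OPN1SW* limits with the high group took its difference between the groups of cones from at least 29.7-fold to 13.5-fold, both added after seeing the data.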
